A study of Mus musculus with 6 samples.

Results

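The enzymes of heme synthesis and the mitochondrial carriers that feed the pathway were examined in bone marrow cells taken fresh from mouse femurs. The genes were Alas2, Alad, Uros, Urod, Cpox, Ppox and Fech, which encode enzymes, and Slc25a37 and Slc25a38, which encode carriers. They were chosen by gene name and are 9 of the 54532 genes in the deposited table. RNA-seq libraries came from 3 samples of mice kept under hindlimb unloading for 4 weeks, labelled as osteoporosis, and from 3 samples of control mice without it. Under unloading the hind limbs are held clear of the ground and carry no body weight. The genotype label was WT in both groups. The sources used here give no strain, age or sex, nor do they say whether the replicates came from separate animals or from pooled ones, so that p-values measure only the spread between these samples, which may be technical.

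Heme synthesis begins in the mitochondrial matrix, where aminolevulinic acid synthase joins glycine to succinyl-CoA. It goes on in the cytosol, where the ring of the porphyrin is built, and ends in the mitochondrion, where ferrochelatase inserts iron. Erythroid precursors of the marrow make most of the heme of the body for hemoglobin, and use their own synthase, ALAS2, in place of the general one, ALAS1. SLC25A37 (mitoferrin) carries iron into the mitochondrion, and SLC25A38 carries glycine.

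In these data no member passed the test between unloaded and control marrow. The highest fold change was that of Alas2, which encodes the entry enzyme of the erythroid pathway, at 179 ± 27.3 CPM in unloaded and 133 ± 20.2 CPM in control marrow (SD, n = 3 each), where CPM is the count scaled to library size with TMM factors. The other members lay within 1.04-fold to 1.13-fold of their control level. All 9 fold changes were above 1, but leaving out unloaded 2 put 3 of them below 1.

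Regulatory sequence is shown for Alas2, whose fold change was the highest, and for Cpox and Uros, which had their lowest level in the unloaded 1 library. Fech was also lowest there, but no promoter window was on hand for it. Alas2 mRNA carries an iron-responsive element before its coding sequence, where iron regulatory proteins bind and hold back translation when iron is low. A search of 27 GENCODE M21 transcripts of the members for a bulged C, a CAGTGN loop and 5 paired bases on each side matched in Alas2 alone, in 2 transcripts that share the site. It lies in exon 1, at mm10 chrX:150547459-150547485 on the + strand. The loop is in capitals.
Alas2 element: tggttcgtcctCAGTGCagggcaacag
Read counts do not measure translation, so the element is given as the landmark of this mRNA.

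RefSeq promoter windows of 300 bases (GRCm38.p6, the assembly of mm10) were on hand for 7 of the 9 members, all but Fech and Slc25a37. Alad and Uros had 2 alternative starts each. Windows were searched on both strands for GATAA, the core bound by the erythroid factor GATA1, and for CACCC, the core bound by KLF1, and matches are in capitals. The 2 motifs share no base in these windows.
Alas2, chrX:150547167-150547466, + strand: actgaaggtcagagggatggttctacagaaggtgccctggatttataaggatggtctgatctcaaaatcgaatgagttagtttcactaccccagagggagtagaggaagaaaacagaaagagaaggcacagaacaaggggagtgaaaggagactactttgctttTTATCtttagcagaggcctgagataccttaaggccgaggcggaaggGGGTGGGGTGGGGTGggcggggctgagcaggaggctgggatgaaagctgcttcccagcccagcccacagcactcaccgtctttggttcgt
Cpox, chr16:58669958-58670257, + strand: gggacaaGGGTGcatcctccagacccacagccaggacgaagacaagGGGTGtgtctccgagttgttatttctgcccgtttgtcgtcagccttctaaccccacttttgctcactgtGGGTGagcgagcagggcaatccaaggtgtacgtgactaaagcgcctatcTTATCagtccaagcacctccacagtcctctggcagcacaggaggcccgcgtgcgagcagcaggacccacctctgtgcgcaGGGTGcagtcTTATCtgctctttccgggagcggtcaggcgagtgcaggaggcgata
Uros, outer start, chr7:133709246-133709545, - strand: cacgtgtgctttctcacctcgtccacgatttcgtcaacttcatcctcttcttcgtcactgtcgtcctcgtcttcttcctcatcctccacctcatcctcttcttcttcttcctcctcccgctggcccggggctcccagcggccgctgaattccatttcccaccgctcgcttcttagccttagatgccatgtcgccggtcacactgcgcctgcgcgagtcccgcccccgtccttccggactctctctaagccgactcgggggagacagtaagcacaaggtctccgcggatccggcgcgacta
Uros, inner start, chr7:133702451-133702750, - strand: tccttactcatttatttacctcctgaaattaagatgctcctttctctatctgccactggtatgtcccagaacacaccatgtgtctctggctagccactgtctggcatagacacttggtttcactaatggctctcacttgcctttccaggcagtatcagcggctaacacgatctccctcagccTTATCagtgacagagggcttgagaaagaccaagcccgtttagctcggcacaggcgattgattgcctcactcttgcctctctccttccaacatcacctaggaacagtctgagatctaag
GATAA was present in 3 of the 9 windows, those of Alas2, Cpox and the inner start of Uros, against 25.4% of all 32851 windows. These are the 3 genes printed here, so the printed sequences do not stand for the members without a match. The GATAA match lies 86 bases before the RefSeq start in Alas2 and in Cpox, read on the opposite strand, and Cpox has another 5 bases after that start. RefSeq starts differ from the deposited gene coordinates. The Cpox window ends before the deposited gene begins, at 58670292, and the outer Uros window lies inside the deposited gene, which runs to 133710072. CACCC was present in 5 of the 9 windows, against 57.5% of all windows, with 3 matches in Alas2 and 4 in Cpox. These are descriptions of letters, and the counts, made per gene, do not separate the 2 starts of Uros.

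Libraries held between 15850986 and 17775506 counts, and the members between 525 and 7825 counts in a library. The counting error of a single value was therefore at most 4.36%, for Uros, and all 9 members passed the low-count filter. Of 15015 genes tested with edgeR's quasi-likelihood test, 0 were called at an adjusted p under 0.05, a background of 0%. Before adjustment, 879 genes had a p under 0.05, 5.85% of those tested. DESeq2 called 35 genes, 0.253% of those with an adjusted p, and limma-voom called 0. The unloaded 1 library stood apart. Its score on principal component 1 of log2 CPM was 51.3, with the others between -13.7 and -7.37, and its share of mitochondrially encoded counts was 0.439%, against 1.05% to 1.27% elsewhere. Values without it are therefore given for every member and for the lists of erythroid, heme and iron genes. Markers of the marrow's lineages were present in every library. Those of neutrophils summed to 53074 to 65023 CPM in unloaded and 56797 to 65047 CPM in control marrow. B cell markers summed to 1332 to 2881 CPM in unloaded and 1935 to 3620 CPM in control marrow. Most of the B cell sum was Ighm, at 1625 ± 738 CPM in unloaded and 1738 ± 990 CPM in control marrow (SD, n = 3 each). Of the 10 B cell markers tested, 0 had a log2 fold change above 0, against 51.2% of all genes. Their median was -0.22 and 0 were called. Without unloaded 3 the median was -0.13, with 3 above 0. Platelet lineage markers summed to 83.9 to 107 CPM in unloaded and 124 to 127 CPM in control marrow, and those of T and NK cells to 158 to 193 CPM in unloaded and 131 to 162 CPM in control marrow. Stromal and endothelial markers summed to 127 to 235 CPM in unloaded and 174 to 316 CPM in control marrow. Their part in the members' values was not tested.

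Alas2 (ENSMUSG00000025270, mm10 chromosome X, 150547375 to 150570638) was at 173, 208 and 154 CPM in unloaded marrow, against 129, 116 and 155 CPM in controls. The groups overlapped only where unloaded 3 met control 3, the highest control, and the other unloaded values lay above all controls. The log2 fold change was 0.42 ± 0.14 (SE), or 1.34-fold with a 95% interval of 1.08 to 1.67. The unadjusted p was 0.0131 and the edgeR adjusted p 0.801. This was the 1 member of 9 at an unadjusted p under 0.05, a share to be read against the 2.67% of all genes that were so and higher. Without unloaded 1 the log2 fold change was 0.44 ± 0.14, and without unloaded 2 it was 0.29 ± 0.15. Apex2, a gene of DNA repair on the opposite strand, spans the whole Alas2 locus and shares 311 exonic bases with it, 12.9% of the Alas2 exons. It had 217 to 284 counts against 1921 to 3540 for Alas2, and a log2 fold change of -0.0041 ± 0.15.

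**Figure D1:**
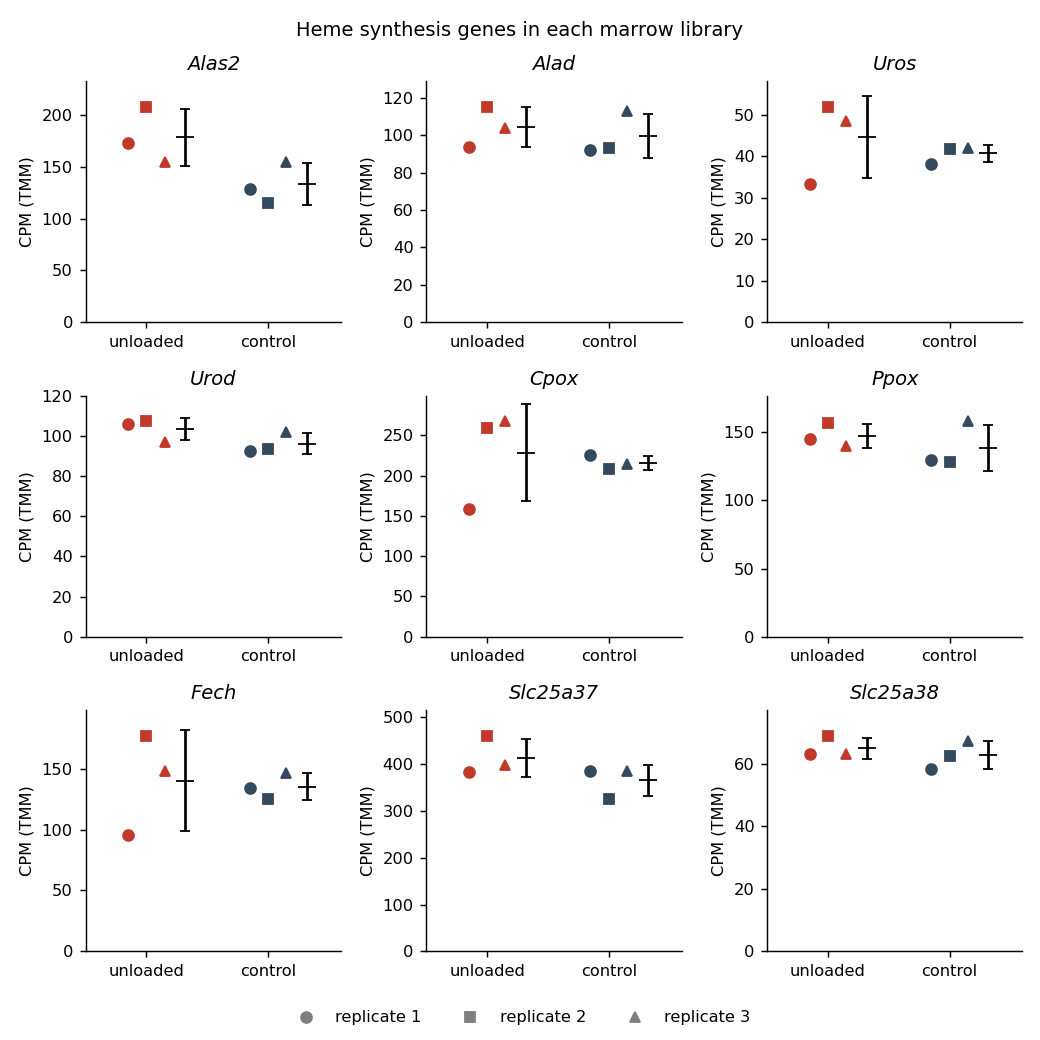
Normalized level (CPM, TMM scaling) of each member in the 3 unloaded and 3 control libraries, with the group mean and SD as the black mark beside the points. Unloaded 1 (circle) is the lowest of the 6 libraries for Uros, Cpox and Fech, and unloaded 3 (triangle) lies just under control 3 for Alas2.

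The cytosolic enzymes differed little between the groups. Alad (ENSMUSG00000028393, chromosome 4, 62509169 to 62519918) encodes the enzyme that condenses aminolevulinate to porphobilinogen, and was at 93.8, 115 and 104 CPM in unloaded marrow, against 92.4, 93.4 and 113 CPM in controls. Its log2 fold change was 0.068 ± 0.12 (SE; edgeR adjusted p = 0.957). Urod (ENSMUSG00000028684, chromosome 4, 116989965 to 116994413), whose enzyme trims the side chains of uroporphyrinogen, had the smallest error of the members. It was at 106, 107 and 97.1 CPM in unloaded marrow, against 92.8, 93.5 and 102 CPM in controls, with a log2 fold change of 0.11 ± 0.10 (edgeR adjusted p = 0.924). Without unloaded 1 the log2 fold change was 0.14 for Alad and 0.088 for Urod, and with each library left out in turn it ran from -0.013 to 0.17 for Alad and from 0.075 to 0.15 for Urod. Both genes overlapped between the groups, and the 95% interval of the fold reached 1.26 for Alad and 1.25 for Urod.

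Uros (ENSMUSG00000030979, chromosome 7, 133686243 to 133710072), which encodes the enzyme that closes the uroporphyrinogen ring, was at 33.4, 51.9 and 48.4 CPM in unloaded marrow, against 38.2, 41.8 and 41.9 CPM in controls. Unloaded 1 lay under every control, and the other 2 unloaded values above every control. With all libraries the log2 fold change was 0.13 ± 0.16 (SE; edgeR adjusted p = 0.930). Without unloaded 1 it was 0.30 ± 0.094, at an edgeR adjusted p of 0.389, and without unloaded 2 it was 0.0077.

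The late, mitochondrial steps showed the same split among the unloaded libraries for Cpox and Fech, and not for Ppox. Cpox (ENSMUSG00000022742, chromosome 16, 58670292 to 58717636) encodes coproporphyrinogen oxidase of the intermembrane space. It was at 159, 259 and 267 CPM in unloaded marrow, against 225, 208 and 214 CPM in controls. Its log2 fold change was 0.081 ± 0.17 (SE; edgeR adjusted p = 0.963) with all libraries, 0.28 ± 0.081 without unloaded 1 and -0.049 without unloaded 3. Fech (ENSMUSG00000024588, chromosome 18, 64456550 to 64489066) encodes ferrochelatase, the enzyme of the last step. It was at 95.9, 177 and 148 CPM in unloaded marrow, against 134, 126 and 147 CPM in controls. Fech had the widest spread of the members, with a log2 fold change of 0.052 ± 0.19 (edgeR adjusted p = 0.979), 0.26 ± 0.10 without unloaded 1 and -0.15 ± 0.18 without unloaded 2.

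Ppox (ENSMUSG00000062729, chromosome 1, 171275990 to 171281186) encodes protoporphyrinogen oxidase, which acts between those steps at the inner membrane. It was at 145, 157 and 140 CPM in unloaded marrow, against 130, 128 and 158 CPM in controls, and control 3 was its highest library. The log2 fold change was 0.088 ± 0.11 (SE; edgeR adjusted p = 0.936). It was 0.10 without unloaded 1, 0.035 without unloaded 2, 0.032 without control 2, 0.043 without control 1 and 0.19 without control 3. B4galt3 on the opposite strand shares 791 exonic bases with Ppox, 17.5% of its exons, and had 1127 to 1339 counts. B4galt3 encodes a galactosyltransferase. Uros overlaps Bccip with 0 exonic bases in common, and Cpox shares 204 exonic bases with the receptor gene Gpr15, which had 14 to 41 counts. Whether counting used strand is not given in the sources, so reads of such pairs cannot be told apart.

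**Figure D2:**
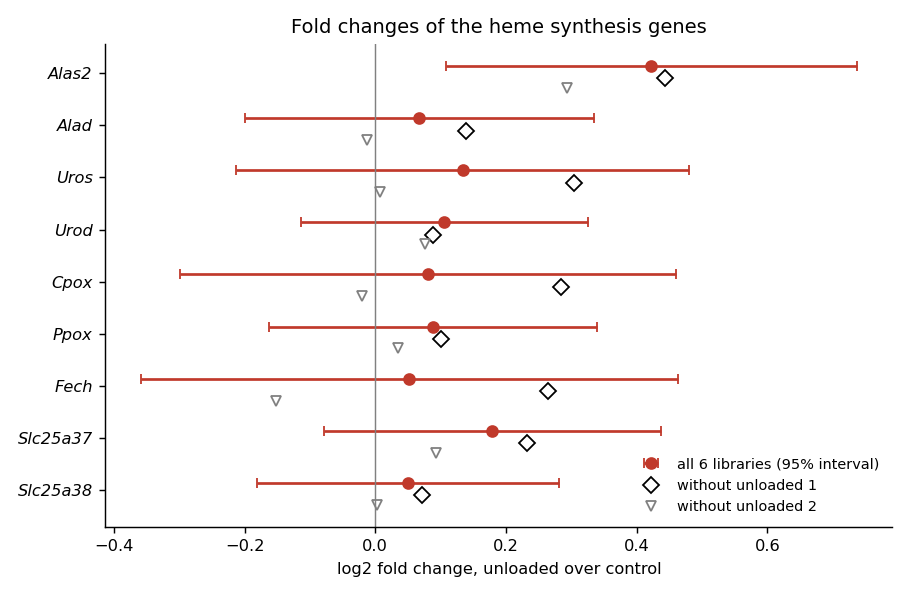
Log2 fold change of each member, unloaded over control, with its 95% interval from the edgeR fit of all 6 libraries, and the values without unloaded 1 and without unloaded 2. The interval of Alas2 alone lies above 0, and leaving out unloaded 2 turns Alad, Cpox and Fech to -0.013, -0.021 and -0.15.

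Of the carriers, Slc25a37 (ENSMUSG00000034248, chromosome 14, 69241848 to 69285112) was at 383, 460 and 398 CPM in unloaded marrow, against 385, 326 and 385 CPM in controls. Unloaded 1 lay just under the upper controls, so the groups overlapped, and the log2 fold change was 0.18 ± 0.12 (SE; edgeR adjusted p = 0.896) or 0.23 ± 0.10 without unloaded 1. It was 0.092 without unloaded 2 and 0.10 without control 2. Slc25a38 (ENSMUSG00000032519, chromosome 9, 120110374 to 120124504) was at 63.1, 68.9 and 63.1 CPM in unloaded marrow, against 58.4, 62.6 and 67.4 CPM in controls. Its log2 fold change was 0.050 ± 0.10 (edgeR adjusted p = 0.963), with an upper bound of 1.22-fold. It was 0.072 without unloaded 1, 0.0032 without unloaded 2, 7.1e-05 without control 1 and 0.10 without control 3. Among 46 genes of the Slc25 family with a count, Slc25a37 ranked 2 per length, behind the adenine nucleotide carrier gene Slc25a5, and Slc25a38 ranked 9. The comparison was chosen after the values were seen, and its ranks depend on the annotated gene lengths.

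All 9 members had a log2 fold change above 0, against 51.2% of all genes tested, and their median was 0.088, against 0.0054 over all genes. The direction held for all 9 under every scaling and tool tried. It also held for all 9 without unloaded 1, where 50.5% of genes were above 0. It held for 6 without unloaded 2, for 8 without unloaded 3 and for 8 without control 2. The members share cells and libraries and are not separate tests of the treatment. No member had all unloaded values above all control values. The share over all genes was 5.46%, so low that 0 of 9 marks no difference from them. Unloaded 2 was the highest of the 6 libraries for 7 of the 9, against 14.7% of all genes, and for 21 of 24 erythroid markers.

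Without unloaded 1, 5 of the 9 members were at an unadjusted p under 0.05, all of them higher in unloaded marrow. Of the 15438 genes tested, 588 were so and higher, and 8.98% were so in either direction. The 5 members were Alas2, Uros, Cpox, Fech and Slc25a37, with unadjusted edgeR p of 0.00818, 0.00788, 0.0048, 0.0229 and 0.0439. None passed adjustment over all genes, the smallest edgeR adjusted p being 0.353 for Cpox, while 5 genes of the table did, 0.0324% of them. The members' median log2 fold change was then 0.23, and 0.0077 without unloaded 2. It was 0.070 without unloaded 3, and 0.080, 0.053 and 0.16 without control 1, control 2 and control 3. The size of the median thus moved with control libraries too. At an unadjusted edgeR p under 0.05 there were 0 members without unloaded 2 and 1 without unloaded 3. Without control 1, control 2 and control 3 there were 1, 0 and 1.

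**Figure D3:**
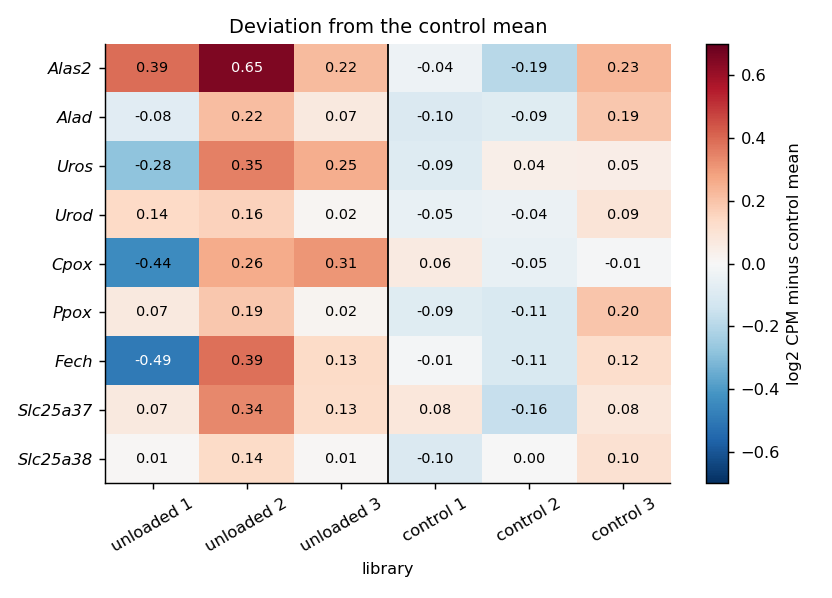
Log2 CPM of each member in each library minus the mean of the 3 control libraries, with a prior count of 2. In the unloaded 1 column Alas2 stands at 0.39 while Fech, Cpox and Uros stand at -0.49, -0.44 and -0.28, and in the unloaded 2 column all members are above 0.

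Unloaded 1 was the lowest library for Uros, Cpox and Fech. These were 3 of 9 members, a share near the 29.5% of all genes for which it was lowest, and the highest for 0 of 9, against 28.2% of all genes. The erythroid markers were 24 genes, among them genes of the red cell membrane, surface antigens, regulators and enzymes such as that of Car2. Together they gave 3108, 4673 and 3870 CPM in unloaded marrow, against 3591, 3324 and 3822 CPM in controls. Their sum was lowest in unloaded 1, where 17 of the 24 had their lowest level. The place of the sum depends on 1 marker, Car2, at 298 CPM in unloaded 1 and 578 CPM in control 2. That gap is wider than the gap between the sums of these 2 libraries. All 24 were detected and tested, 19 had a log2 fold change above 0, 0 were called and the median was 0.10. Without unloaded 1 all 24 were above 0 with a median of 0.26, and without unloaded 2 there were 7 with a median of -0.044. The part of the erythroid share in the members' values was not tested, and in bulk marrow fewer cells of a type and less RNA per cell cannot be told apart. Sptb, which encodes spectrin of the red cell skeleton, had the smallest p among them, at 287 ± 39.3 CPM in unloaded and 227 ± 18.6 CPM in control marrow (SD, n = 3 each; edgeR adjusted p = 0.802). Epor, the erythropoietin receptor gene, had the smallest p among the lower ones, with a log2 fold change of -0.049 ± 0.12 with all libraries and 0.065 when unloaded 1 was left out.

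Set against the erythroid marker sum, Alas2 stood at the upper end of the 6 libraries in unloaded 1, and Fech and Cpox at the lower end. The size of these shares depends on Car2, which is part of the sum. Alas2 was 5.57%, 4.46% and 3.99% of that sum in unloaded marrow, against 3.59%, 3.48% and 4.06% in controls, and unloaded 1 was the highest. Fech was 3.08%, 3.79% and 3.83% in unloaded marrow, against 3.73%, 3.78% and 3.84% in controls, so that unloaded 1 lay below the rest and the other libraries lay close together. Cpox was 5.11%, 5.53% and 6.90% in unloaded marrow, against 6.27%, 6.25% and 5.60% in controls. The 7 enzymes together made up 25.9%, 23.0% and 24.8% of the marker sum in unloaded marrow, against 23.4%, 24.2% and 24.4% in controls, with overlapping groups. The summed adult globins were 6.39, 5.29 and 4.19 times the summed enzymes in unloaded marrow, against 3.82, 4.06 and 4.33 times in controls, with unloaded 3 inside the range of the controls.

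Levels of different genes were compared per length, as TPM, counts divided by length and scaled to the same total in every library, from the deposited gene lengths. Alas2 averaged 208 ± 37.8 TPM in unloaded and 154 ± 28.6 TPM in control marrow, and Slc25a37 averaged 192 ± 24.5 TPM in unloaded and 168 ± 21.3 TPM in control marrow (SD, n = 3 each). These 2 exchanged places, Alas2 being above Slc25a37 in 3 of the 6 libraries. Uros was the lowest in every library, at 34.8 ± 8.20 TPM in unloaded and 31.5 ± 1.84 TPM in control marrow. Between them stood Alad, Fech, Alas1, Urod, Cpox, Ppox and Slc25a38, in order of mean level. Fech and Alas1, Urod and Cpox, and Cpox and Ppox were neighbours whose order changed between libraries. Slc25a37 lay above Alad, Alad above Fech, Alas1 above Urod, Ppox above Slc25a38 and Slc25a38 above Uros in all 6.

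**Figure D4:**
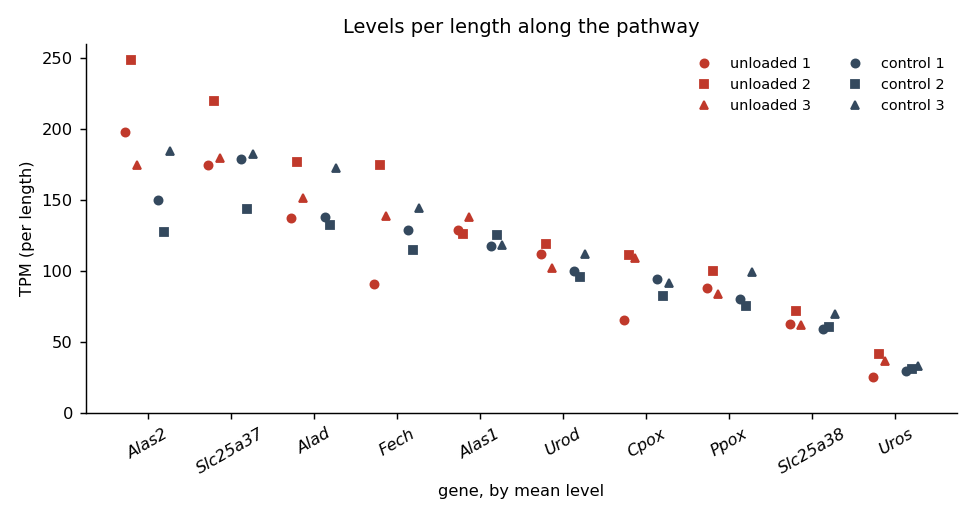
Level per length (TPM) of the 9 members and of Alas1 in each library, ordered by the mean over the 6 libraries. The points run from Alas2 and Slc25a37 down to Uros, and Fech and Cpox of unloaded 1 lie below the other libraries.

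Alas1, the synthase gene of all cells, was at 289, 272 and 313 CPM in unloaded marrow, against 260, 292 and 256 CPM in controls (log2 0.11 ± 0.11, SE; edgeR adjusted p = 0.924). The groups overlapped. Per length, Alas2 made up 60.6%, 66.3% and 55.9% of Alas1 plus Alas2 in unloaded marrow, against 56.0%, 50.4% and 60.9% in controls.

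Genes around the pathway were taken by list, and 0 of the tested members of each list passed in either direction. Among heme and porphyrin transporters and their partners, 6 of 11 tested genes had a log2 fold change above 0 and the median was 0.0034, and without unloaded 1 all 11 were above 0 with a median of 0.085. Abcb6, a porphyrin transporter gene, was low, at 3.54 ± 0.516 CPM in unloaded and 2.34 ± 0.271 CPM in control marrow (SD, n = 3 each; edgeR adjusted p = 0.828). Abcb10, which holds mitoferrin in place at the inner membrane in mouse erythroid cells, was at 89.6, 183 and 154 CPM in unloaded marrow, against 158, 146 and 151 CPM in controls, and like Fech was lowest in unloaded 1. Abcb10 was singled out after its values were seen.

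All 4 genes of heme breakdown had a log2 fold change above 0, with a median of 0.26, or 0.16 without unloaded 1. Hmox1, which encodes the inducible heme oxygenase, was at 107, 69.4 and 68.6 CPM in unloaded marrow, against 58.0, 60.8 and 62.0 CPM in controls. All unloaded values lay above all controls, with unloaded 1 the highest. Groups do not overlap, in one direction or the other, for 11.9% of all genes. For Hmox1 the log2 fold change was 0.44 ± 0.16 (SE; edgeR adjusted p = 0.804), and 0.20 ± 0.084 without unloaded 1 (edgeR adjusted p = 0.518). The sum of 15 monocyte and macrophage markers was 2212 to 2737 CPM in unloaded and 2438 to 2514 CPM in control marrow, and was highest in unloaded 1, at 2737 CPM. Its part in the Hmox1 values was not tested.

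Among genes of heme sensing and of the turnover of the synthase, 5 of 9 had a log2 fold change above 0, with a median of 0.060, or 0.047 without unloaded 1. Clpp, a mitochondrial protease gene, was at 23.3 ± 1.14 CPM in unloaded and 17.8 ± 2.34 CPM in control marrow (SD, n = 3 each; edgeR adjusted p = 0.801), with no overlap. Bach1, a heme-binding repressor gene, had a log2 fold change of -0.15 ± 0.12 with all libraries and -0.24 ± 0.10 when unloaded 1 was left out. Genes that supply succinyl-CoA and glycine were above 0 in 7 of 9, with a median of 0.085, or 0.14 without unloaded 1. Shmt2, which encodes the mitochondrial enzyme that makes glycine from serine, was at 121 ± 7.39 CPM in unloaded and 98.8 ± 9.01 CPM in control marrow (SD, n = 3 each; edgeR adjusted p = 0.804), again with no overlap. Suclg2, a succinyl-CoA ligase subunit gene, had a log2 fold change of -0.23 ± 0.21 with all libraries and 0.00090 when unloaded 1 was left out.

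Iron genes were mixed, with 5 of 12 above 0 and a median of -0.026, or 0.027 without unloaded 1. Slc40a1, the gene of the iron exporter ferroportin, was at 148, 189 and 200 CPM in unloaded marrow, against 240, 225 and 226 CPM in controls. All unloaded values lay below all controls, at a log2 fold change of -0.37 ± 0.12 (SE), and the edgeR adjusted p was 0.801. Without unloaded 1 it was -0.25 ± 0.083. Slc25a28, the mitoferrin gene of other cells, was at 55.2 ± 7.73 CPM in unloaded and 47.4 ± 4.55 CPM in control marrow (SD, n = 3 each; edgeR adjusted p = 0.890), and its log2 fold change was 0.22, or 0.10 without unloaded 1. Iron-sulfur assembly genes had a median of 0.014 over 14 tested, or 0.11 without unloaded 1, with Fdxr, the ferredoxin reductase gene, at 0.22 ± 0.15 and the scaffold gene Iscu at -0.16 ± 0.096 on the log2 scale. Without unloaded 1 Fdxr was at 0.079.

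**Figure D5:**
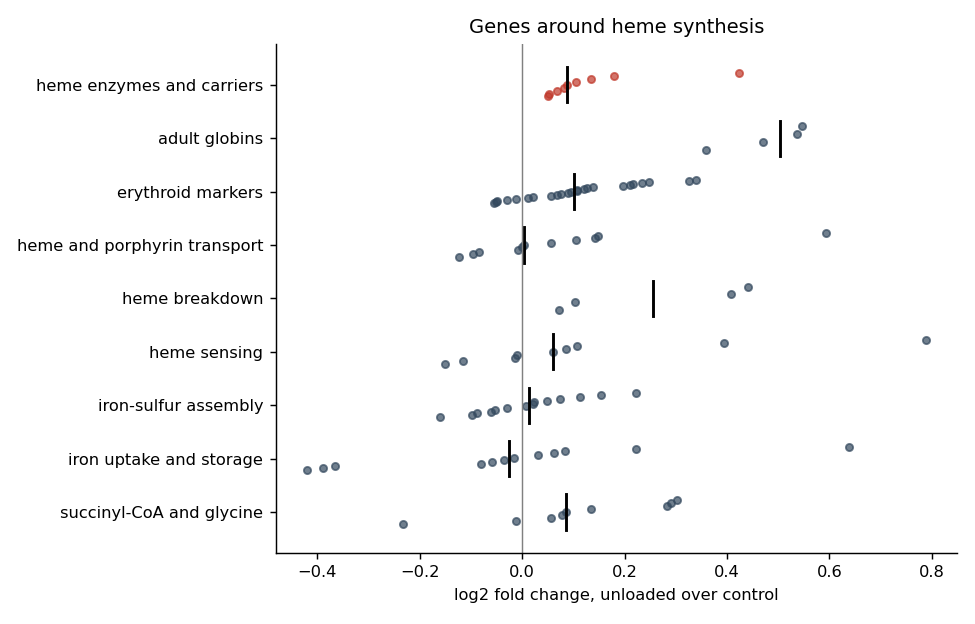
Log2 fold change, unloaded over control, of each tested gene in the lists around heme synthesis, with the list median as a bar. The 9 members lie between 0.050 and 0.42 with a median of 0.088, close to the erythroid markers at 0.10, and the adult globins have a median of 0.50, or 0.47 without unloaded 1.

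The genes whose profile over the 6 libraries was nearest to that of Alas2 were found among 8962 protein-coding genes with a mean of at least 10 CPM, by the root mean square difference of centred log2 CPM. The nearest were Kel, a blood group antigen gene of red cells, at 0.067, and Hba-a1, an adult alpha globin gene, at 0.074. Ctsw, a cathepsin gene of T and NK cells, followed at 0.088, then Ypel4 at 0.091. Of the other members, Slc25a37 stood at rank 64 and Ppox at 149, while Fech and Cpox stood at ranks 4600 and 5873. The measure is a description over 6 libraries that share 1 library standing apart.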

How the data were processed

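The members and gene lists were chosen with earlier results of these data known. Reads were processed with CASAVA, HISAT2 2.0.5, mm10 and featureCounts 1.5.0-p3, per the submitters' processing notes. Annotation release, strand setting and the handling of multi-mapped reads: not given in the sources used here. The authors deposited 1 table of raw, unnormalized gene counts for the 6 libraries, to judge by its whole numbers and unequal column totals. Gene length, another deposited column of the authors, was used for TPM. Gene coordinates are those of the table, and 8 of 9 members matched GENCODE M21 in identifier and coordinates, all but Fech.

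Genes were kept by edgeR's filterByExpr (15015 of 54532), scaled by TMM and compared with edgeR 4.0.16 (glmQLFit, glmQLFTest) in R 4.3.3, with Benjamini-Hochberg adjustment over all genes tested and a threshold of 0.05. Standard errors were |log2 fold change| over the root of F, and the 95% interval used the fit's degrees of freedom. The fit was tested on simulated counts. Sums, ratios and list counts carry no test. Alternatives were DESeq2 1.42.0, limma-voom (limma 3.58.1), scaling by RLE or the upper quartile, no filter, at least 1 CPM in 3 libraries, leaving out hemoglobin and the 20 most counted genes, each library left out and the replicate block. DESeq2 without unloaded 1 was added after seeing the data. Named genes were all members, Alas1, the smallest p in each direction of each list, genes overlapping a member and the 5 nearest to Alas2. Some genes that this rule names are not reported here. Marker lists of other cell types are given by their sums, with the median log2 fold change added for B cells. All libraries differed beyond sampling noise, with chi-square per degree of freedom from 6.64 to 34.3 over 15 pairs.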

Additional observations from a re-analysis of the deposited data

How the results depend on the processing

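No member was called under any of the 15 alternatives, and the smallest adjusted p was 0.110 for Alas2, which kept its direction in all of them with log2 fold changes of 0.29 to 0.55. Of 135 member values under an alternative, 5 changed sign, all with a library left out. With each library left out in turn, Alad ran from -0.013 to 0.17, Cpox from -0.049 to 0.28 and Fech from -0.15 to 0.26. The number of genes called over the table was 35 with DESeq2, 183 without a low-count filter, 1 with the replicate block, 0 to 5 with a library left out and 67 with DESeq2 without unloaded 1, against 0. In the replicate block 0 members were called, and the same-numbered libraries did not deviate together, with correlations of 0.031, -0.063 and 0.019, so the numbers were not taken as pairs. The summed level of the members was 1426 ± 177 CPM in unloaded and 1288 ± 94.7 CPM in control marrow (SD, n = 3 each). The difference of 138 CPM was 226 CPM without unloaded 1 and 45.6 CPM without unloaded 2, and moved by less than the spread between replicates under the 11 alternatives in which the sum was computed. For DESeq2, limma-voom and the replicate block no sum was computed. With 3 libraries a group the 95% interval of the Fech fold ran from 0.780 to 1.38.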
